A study of Mus musculus with 16 samples.

Results

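The 10 genes described here, Adipoq, Plin1, Lep, Cidec, Fabp4, Pparg, Lpl, Cfd, Retn and Lipe, are expressed by fat cells, and they were followed across 16 tumours grown in a fat pad. They were chosen by symbol, and all 10 were found among 24681 gene symbols of the count table, had a value in every library and passed the filter on low counts that left 15610 genes to test. AU565(pv), a human HER2-positive breast cancer cell line, was injected into the mammary fat pad and formed a tumour there. The hosts were SCID mice, a strain without mature T or B cells. Each tumour was taken whole 2 days after treatment began and gave 1 library, and the counts are those of mouse genes.

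In all groups treatment began at a tumour size of 20 to 25 mm2, and all injections were intraperitoneal. Vehicle mice received D5W, the solvent arm for panobinostat, on days 0 and 1 and PBS on day 0. Trastuzumab mice received D5W on days 0 and 1 and trastuzumab, an antibody against HER2, at 10 mg/kg. Panobinostat mice received panobinostat, an inhibitor of histone deacetylases, at 15 mg/kg on days 0 and 1 and PBS on day 0. Combination mice received both drugs at those doses. The day of trastuzumab is day 0 in the treatment protocol and day 1 in the design text, so the length of exposure is uncertain. Each group held 4 mice, named here by the numbers in the labels: vehicle 3, 6, 21 and 29, trastuzumab 12, 15, 20 and 24, panobinostat 4, 7, 8 and 13, and combination 2, 11, 16 and 22. The labels give neither the age or sex of the mice nor how much fat pad was taken with a tumour.

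A white fat cell stores triglyceride in a droplet and releases it as fatty acids. Its identity is set by PPARγ, the nuclear receptor encoded by Pparg, which acts with C/EBP factors on the genes of storage and secretion. Mammary fat pads consist largely of such cells, and a tumour growing there borders on them and grows into them.

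Total counts were 4848244 to 8140782 per library, and the 10 genes took from 0.170% to 1.00% of a library's counts. The least counted of them, Lep, had 76 to 753 counts per library, and Fabp4 had 3252 to 30344. One library stood apart in another tissue's genes: the summed level of 6 skin markers in the table was 478 CPM (counts scaled to 1000000 per library) in vehicle 21 and 21.4 to 45.9 CPM in the other 15 libraries. Vehicle 21 was not extreme in the fat cell genes, which summed to 3872 CPM there, the ninth highest of the 16 libraries, and they are given with and without it where a call rests on it. Counts came from a kit that does not mark strand, and of the 10 genes Lipe alone shares exons with an annotated gene on the other strand, 4732471J01Rik.

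Per length of transcript, Fabp4, the fatty acid carrier of fat cells, was the most abundant, at a mean of 2361 RPKM (counts per kilobase, scaled to library size) over 16 libraries. Cfd, the serine protease complement factor D, followed at 1040.1, and Adipoq, the hormone adiponectin, at 282. Cidec, which fuses lipid droplets, stood at 189 and Lpl, lipoprotein lipase, at 163, and their ranges over the libraries (73.6 to 401 and 43.9 to 427) overlapped almost entirely. Next came Retn, the hormone resistin, at 57.5, Lipe, hormone-sensitive lipase, at 50.3, and Plin1, perilipin of the droplet surface, at 43.3, with ranges over the libraries that overlapped. Such ranges are spreads between tumours that the genes share (r = 0.986 for Plin1 and Lipe). Their overlap therefore does not show that 2 genes are alike within a library. Pparg stood at 30.4 and Lep, the hormone leptin, was lowest at 12.2. On mm10, Adipoq lies on chromosome 16 at 23146536 to 23158028, Cfd on chromosome 10 at 79890853 to 79892655 and Retn on chromosome 8 at 3655770 to 3660110, each a protein-coding gene whose exons overlap those of no other annotated gene. The levels below are TMM-scaled CPM, which are not divided by length and compare libraries, not genes.

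The secreted products varied several-fold among mice treated alike. Adipoq stood at 165, 426, 283 and 417 CPM in vehicle 3, 6, 21 and 29, at 579, 250.4, 234 and 145 in trastuzumab 12, 15, 20 and 24, at 249, 515, 177 and 781 in panobinostat 4, 7, 8 and 13, and at 359, 486, 191 and 569.6 in combination 2, 11, 16 and 22. Every group held both low and high tumours, and the 4 ranges overlapped. In whole tumours, fewer fat cells and less RNA of these genes per fat cell cannot be told apart. In the same order of libraries, Cfd stood at 392, 1923, 827 and 1479 CPM with vehicle, 2019, 699, 645 and 399 with trastuzumab, 557, 1296, 369 and 1037 with panobinostat, and 663, 1096, 408 and 1536 with the combination. Its highest tumours, trastuzumab 12 and vehicle 6, were both without panobinostat. Retn stood at 18.1, 187, 95.1 and 149 CPM with vehicle, 207, 65.7, 37.2 and 23.7 with trastuzumab, 39.4, 118, 22.2 and 133 with panobinostat, and 63.1, 115, 26.5 and 154 with the combination. It spanned 10.4-fold within the vehicle group alone. Lep stood at 20.3, 62.3, 32.9 and 59.2 CPM with vehicle, 50.4, 23.4, 23.6 and 15.2 with trastuzumab, 23.5, 55.2, 19.0 and 124 with panobinostat, and 38.8, 41.8, 14.5 and 34.3 with the combination. Panobinostat 13 held the highest Lep of all, well above vehicle 6, the next library.

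The droplet and lipase genes ranked the tumours in nearly the same way. Plin1 stood at 39.6, 146, 98.4 and 127 CPM with vehicle, 204, 74.9, 51.8 and 36.9 with trastuzumab, 91.4, 234, 47.6 and 315 with panobinostat, and 122, 173, 65.0 and 172 with the combination. Again 1 tumour of each group was far below its highest, and no group stood clear of another. Cidec spanned 127 to 689 CPM over the 16 libraries, Fabp4 598 to 4979, Lpl 181 to 1757 and Lipe 68.6 to 403. Lpl had its widest range within the panobinostat group, 9.72-fold from panobinostat 8 to panobinostat 13.

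Pparg was the exception. It stood at 47.5, 52.5, 55.5 and 51.0 CPM with vehicle, 51.9, 51.0, 51.6 and 41.6 with trastuzumab, 53.1, 56.0, 46.9 and 77.3 with panobinostat, and 54.2, 55.8, 52.0 and 60.7 with the combination. Only panobinostat 13 was well above the rest and only trastuzumab 24 well below. The highest library was 1.86 times the lowest for Pparg, and 5.37 times (Adipoq) to 11.4 times (Retn) for the other 9 genes. How much of the Pparg count came from cells other than fat cells, or from human reads, was not measured.

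**Figure D1:**
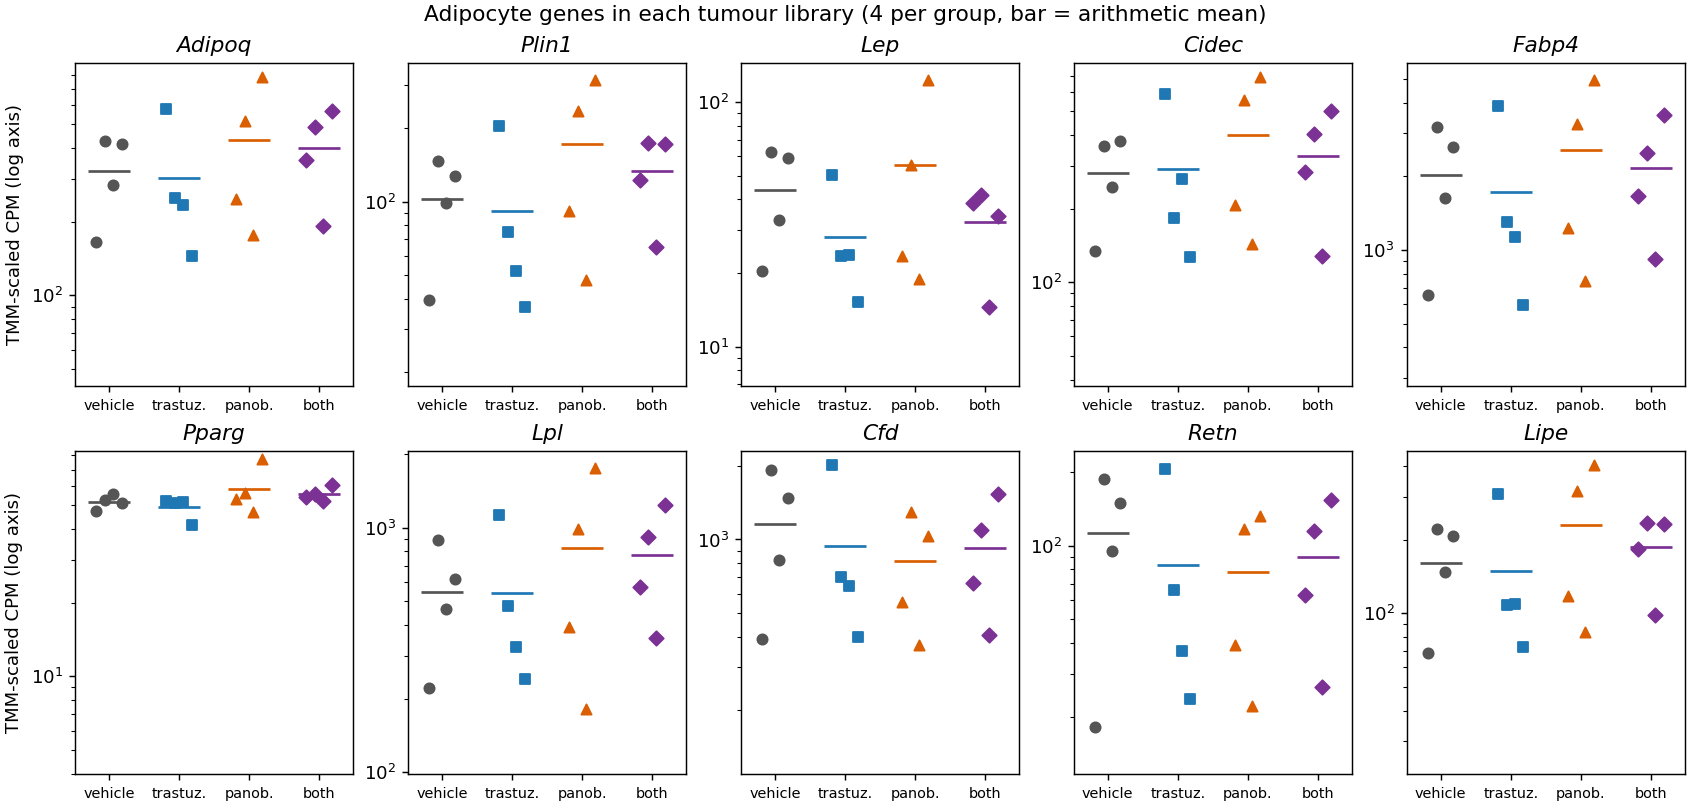
TMM-scaled CPM of the 10 genes (log axis, all panels spanning the same number of decades) in each of 16 tumour libraries, by group; each point is 1 mouse and the bar is the arithmetic mean of 4. Points of a group lie 2.38-fold to 10.4-fold apart in 9 panels and closer together for Pparg, whose widest group is 1.65-fold.

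The spread between mice was large against that of other genes. The biological coefficient of variation, the relative spread between replicate tumours beyond counting noise, was 0.457 for Adipoq, 0.544 for Plin1, 0.503 for Lep, 0.511 for Cidec, 0.592 for Fabp4, 0.577 for Lpl, 0.524 for Cfd, 0.688 for Retn and 0.487 for Lipe. These 9 genes lay at the 98.1st to 99.6th percentile of the genes tested, whose median was 0.156. Pparg, at 0.131, lay at the 31.3rd percentile. The share of a gene's variation in log2 CPM that lay between the 4 groups was 3.16% for Retn, 3.92% for Cfd, 7.92% for Adipoq and at most 14.2% (Plin1) among these 9 genes, and 24.5% for Pparg. The median over all genes tested was 18.5%, and 20% would fall between groups on average if groups did not matter.

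**Figure D2:**
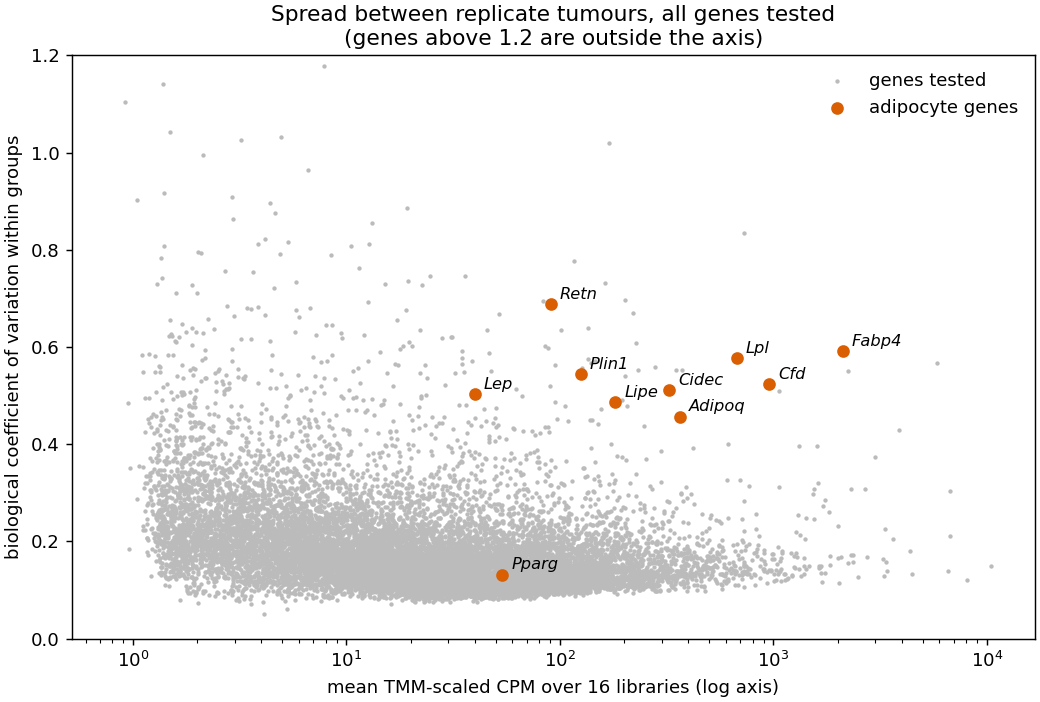
Biological coefficient of variation within groups against mean TMM-scaled CPM over 16 libraries (log axis) for the genes tested, with the 10 fat cell genes named. Retn, at 0.688, is the highest of the 10, and Pparg, at 0.131, lies within the bulk of genes.

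The same tumours were high or low in nearly all of the genes. Summed over the 10 genes, panobinostat 13 had 10294 CPM and trastuzumab 12 had 9018 CPM, followed by combination 22 with 8057, vehicle 6 with 7442 and panobinostat 7 with 7406, so the 5 highest tumours came from all 4 groups. The lowest were trastuzumab 24 with 1699.6 CPM, vehicle 3 with 1759.7 and panobinostat 8 with 1838. Each of these 3 tumours was among the lowest 4 for 10 of 10 genes, and combination 16, with 2255 CPM, was so for 7. Over 16 libraries the log2 CPM of Fabp4 correlated with that of Adipoq at r = 0.988, Lipe at 0.985, Cidec and Plin1 at 0.977, and Lpl at 0.974. Retn (0.913), Lep (0.907) and Cfd (0.873) followed less closely. For these 3 genes, deviations from the group means correlated better, at 0.958, 0.958 and 0.943. Pparg had r = 0.787, or 0.705 without panobinostat 13 and trastuzumab 24, the 2 libraries farthest from the median of Adipoq, while the other 8 genes stayed at 0.865 or above without them. A doubling of Adipoq between libraries went with a log2 difference of 0.20 for Pparg, 0.99 for Cfd, 1.03 for Lep, 1.31 for Fabp4 and 1.47 for Retn. All these correlations share libraries and scaling, and they describe the libraries of 4 treatment groups pooled.

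**Figure D3:**
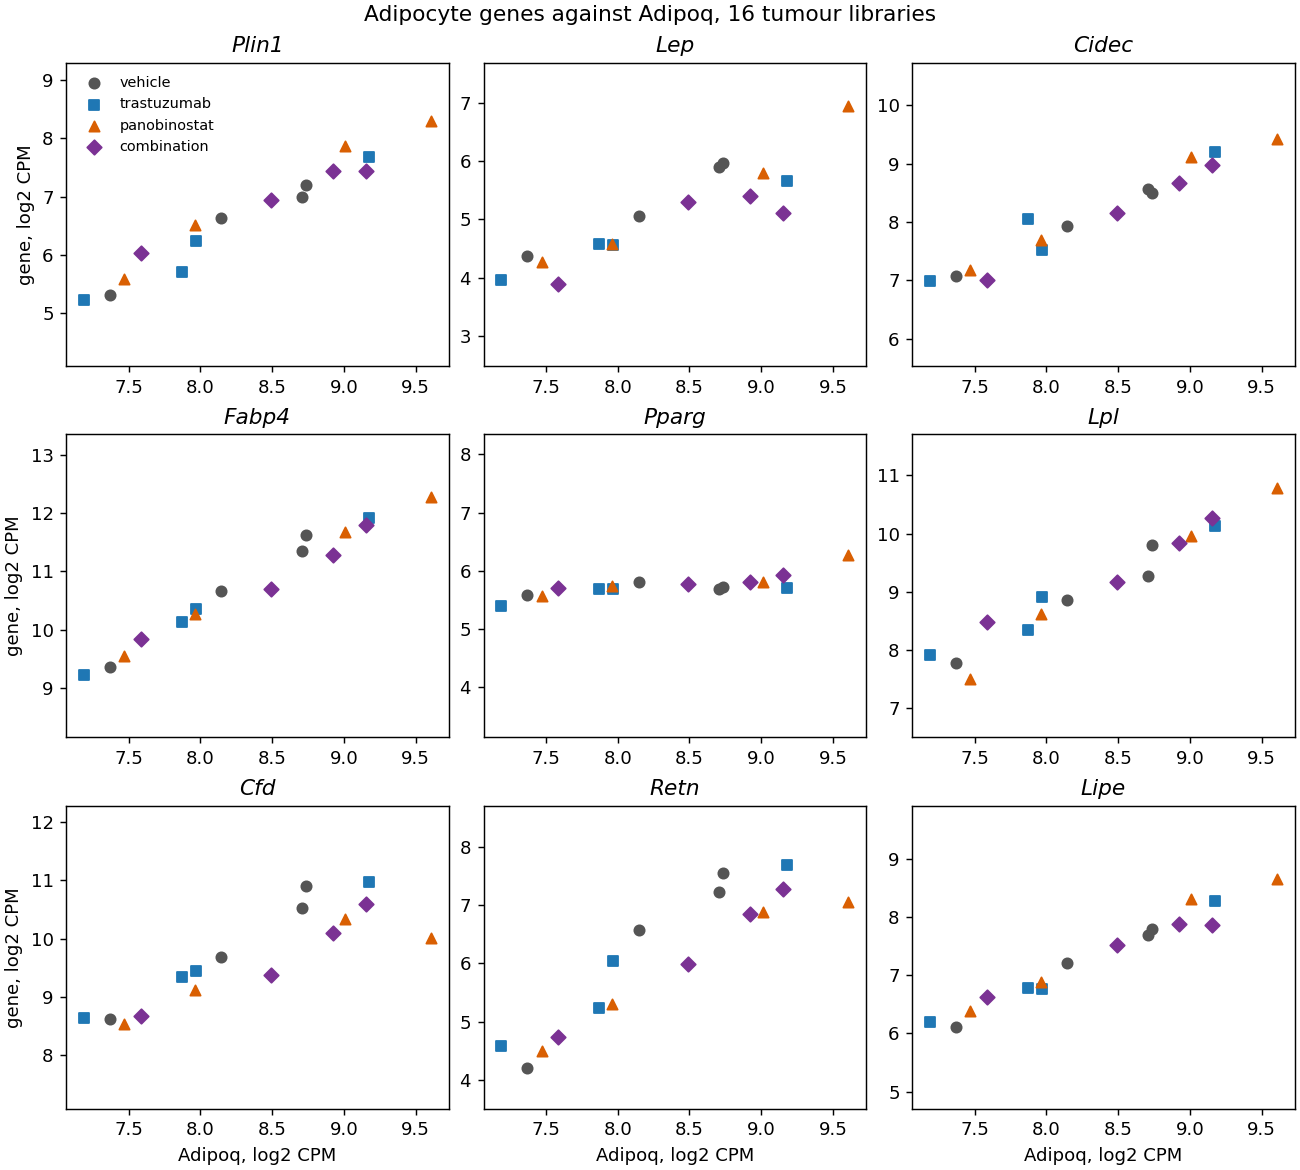
Log2 CPM of 9 genes against log2 CPM of Adipoq in the 16 tumour libraries, with symbols by group and all vertical axes of equal length. Lipe and Fabp4 follow 1 line over all groups, Pparg is nearly level with a slope of 0.20, and in the Cfd panel panobinostat 13 lies below the tumours of similar Adipoq.

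The 250 bases before the start sites of 5 of the genes are shown, from RefSeq on build GRCm38.p6. They are 3 that carried a motif searched for, and Cfd and Retn, chosen because they differ from the rest below. Not shown are Cidec and Pparg, which also carried a motif, and Lipe, which carried none. Whether these letters bear on how the genes varied was not tested. Capitals mark CCAAT (bound by NF-Y) in Adipoq and TTGCNNAA (the form bound by C/EBP factors) in Plin1 and Lep, found on either strand, so that CCAAT also appears as its complement. Each is written 5′ to 3′ on the gene's strand. The windows are chr16:23146286-23146535 (plus strand) for Adipoq, chr7:79732777-79733026 (minus strand) for Plin1, chr6:29059971-29060220 (plus strand) for Lep, chr10:79890603-79890852 (plus strand) for Cfd and chr8:3655520-3655769 (plus strand) for Retn.
Adipoq: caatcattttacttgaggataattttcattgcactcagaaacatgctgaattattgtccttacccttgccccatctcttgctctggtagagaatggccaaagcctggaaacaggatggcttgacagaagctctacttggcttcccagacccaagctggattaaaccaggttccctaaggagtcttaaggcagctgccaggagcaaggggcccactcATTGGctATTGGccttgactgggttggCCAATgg
Plin1: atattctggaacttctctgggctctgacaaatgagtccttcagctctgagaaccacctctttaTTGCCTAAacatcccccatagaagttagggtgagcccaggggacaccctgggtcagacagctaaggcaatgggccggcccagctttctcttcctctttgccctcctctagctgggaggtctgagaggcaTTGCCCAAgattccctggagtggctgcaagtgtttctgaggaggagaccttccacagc
Lep: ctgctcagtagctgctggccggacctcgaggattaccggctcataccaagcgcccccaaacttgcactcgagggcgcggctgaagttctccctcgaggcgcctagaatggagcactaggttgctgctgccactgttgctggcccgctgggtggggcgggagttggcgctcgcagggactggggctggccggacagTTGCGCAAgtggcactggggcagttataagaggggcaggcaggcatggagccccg
Cfd: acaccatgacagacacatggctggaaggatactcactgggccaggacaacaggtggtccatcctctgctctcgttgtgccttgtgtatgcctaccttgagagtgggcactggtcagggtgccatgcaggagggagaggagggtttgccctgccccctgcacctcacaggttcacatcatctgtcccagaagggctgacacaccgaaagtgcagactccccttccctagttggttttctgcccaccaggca
Retn: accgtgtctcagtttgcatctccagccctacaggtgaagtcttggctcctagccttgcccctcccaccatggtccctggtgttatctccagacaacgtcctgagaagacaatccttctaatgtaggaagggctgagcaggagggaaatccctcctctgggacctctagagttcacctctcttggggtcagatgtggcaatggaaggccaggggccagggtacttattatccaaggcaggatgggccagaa
Adipoq held CCAAT 3 times, at -34, -27 and -7 from the start site. Plin1 held TTGCNNAA at -187 and -58, and Lep held it at -55, where its letters read the same on both strands. Sequences were found for 8 of the 10 genes, and a gene with several start sites was counted if any window held the motif. The percentages count single promoters, so they are not in the same unit as the counts of genes. TTGCNNAA was in 4 of 8 genes and in 9.57% of 32841 mouse promoters, CCAAT in 2 of 8 and 33.9%, AGGTCA (the core site of nuclear receptors such as PPARγ) in 1 of 8 and 14%, and TATAAA (the TATA box) in 1 of 8 and 12.4%. No motif searched for was in the windows of Cfd, Retn and Lipe, which says only that these letters are not there.

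Many genes beyond the 10 followed Adipoq. Of the other 15609 genes tested, 244 had r over 0.9, and the median was 0.03. Outside the 10 genes, the most alike was Car3, a carbonic anhydrase abundant in fat (r = 0.990), followed by Ephx2, soluble epoxide hydrolase (0.989), Mgst3, a glutathione transferase of membranes (0.985), Cat, catalase (0.983), and Ivd, of leucine breakdown (0.979). The next were Pnpla2, the lipase that begins triglyceride breakdown (0.977), Aifm2 (0.974), Mmd (0.973), Gsta4 (0.972) and Fitm2, of droplet formation (0.972). Car3 ranged from 708 to 5353 CPM over the 16 libraries.

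Fat cell genes of other roles followed to differing degrees. Of 16 other fat cell genes, 11 had r over 0.9 with Adipoq and 16 were over 0.5. Of 14 genes of the lipid droplet and its breakdown, 7 were over 0.9, and of 22 genes of fatty acid uptake and synthesis, 9. Of 12 transcription factors of fat cell formation, 1 was over 0.9, Cebpa, at 0.95, which encodes C/EBPα. Of 10 hormone and adipokine receptors, 1 was over 0.9, Adipor2, a receptor of adiponectin, also at 0.95, and the median was 0.26. Markers of brown and beige fat were scarce: Ucp1, the uncoupling protein that defines brown fat, averaged 1.04 CPM, and all 8 summed to 11.4 to 68.0 CPM per library.

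Markers of the other cells that a fat pad tumour can hold followed the fat cell genes less, with some exceptions. The median r with Adipoq was 0.00 for 10 macrophage markers, -0.02 for 10 endothelial markers and -0.13 for 9 tested fibroblast and preadipocyte markers, with none over 0.9 apart from Cldn5, a junction protein of vessels, at 0.90. Some of the other markers followed more closely in deviations from the group means than over all libraries, and others did not. Of those that did, 3 are named here after their values were seen. These were Gpihbp1, which anchors lipoprotein lipase on capillaries (0.77 and 0.90 within groups), and the fibroblast genes Dpt (0.60 and 0.87) and Pi16 (0.45 and 0.72). The most abundant were Lyz2, lysozyme of macrophages, with r = -0.20, C1qa, a complement subunit (0.45), the collagens Col3a1 (-0.13) and Col1a1 (-0.71), and the vessel markers Pecam1 (-0.07) and Cdh5 (-0.39). Of the mammary epithelium, Prlr had 0.29 and Krt5 -0.29, of muscle Acta1 had -0.58 and Tnni2 0.47, and of skin Krt15 had -0.48 and Krt77 -0.50. Only 3 of the 10 muscle markers passed the filter. Acta1 averaged 675 CPM, but Tnni2 2.47, Ckm 1.02, Mylpf 1.09 and Mb 0.64, so Acta1 is not read here as a measure of muscle. Over the libraries the macrophage markers varied 1.46-fold in sum, the endothelial 1.54-fold and the fibroblast markers 2.08-fold, against 6.06-fold for the 10 fat cell genes.

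With panobinostat alone, 8 of the 10 genes had a higher and 2 (Cfd and Retn) a lower fitted mean than with vehicle, but none passed the test. Adipoq averaged 323 ± 124 CPM with vehicle and 430.4 ± 275 CPM with panobinostat (SD, n = 4 each). Its log2 change was 0.41 (SE 0.47, edgeR adjusted p = 0.925), and -0.042 without panobinostat 13. This fold, 1.33, had an approximate 95% interval of 0.654 to 2.72. Plin1 had the largest difference, 0.74 (SE 0.57, adjusted p = 0.862), and Retn the lowest, -0.53 (SE 0.72, adjusted p = 0.945). The median of the 10 genes was 0.38, against 0.01 over all genes tested, of which 0.192% were called.

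Trastuzumab alone called no gene of the table (0% of 15610 in edgeR's test, 549 at an unadjusted p under 0.05, and 12 with DESeq2), and none of the 10 genes with either tool. Adipoq averaged 302 ± 190.1 CPM with trastuzumab (SD, n = 4). The 10 genes had a median log2 change of -0.13, from -0.63 for Lep (SE 0.53, adjusted p = 1.00) to 0.06 for Cidec.

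With both drugs together, 0 of the 10 genes were called against vehicle, in a comparison that called 2.2% of genes. Adipoq averaged 402 ± 165 CPM (SD, n = 4) and had a log2 change of 0.32 (SE 0.47, adjusted p = 0.846), and the median of the 10 genes was 0.16. Against panobinostat alone their median was -0.18 (0% of all genes called, with 700 at an unadjusted p under 0.05 and 15 called with DESeq2), and against trastuzumab alone 0.26 (0.628% called). In the latter comparison Pparg was the only gene of the 10 whose groups did not overlap, 52.0 to 60.7 CPM against 41.6 to 51.9 CPM. Groups of 5.07% of all genes did not overlap there, and Pparg's log2 change of 0.18 (SE 0.13) had adjusted p = 0.735.

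Averaged over trastuzumab, so that 8 tumours stood on each side, panobinostat went with a median log2 difference of 0.34 for the 10 genes (3.02% of all genes called). Pparg had the smallest adjusted p of any of the 10 in any comparison, 0.419, at a fold of 1.13 with an interval of 0.986 to 1.30. For Adipoq the fold was 1.33 (0.804 to 2.20), for Plin1 1.56 (0.847 to 2.85), for Cfd 0.833 (0.465 to 1.49) and for Retn 0.862 (0.399 to 1.87), so a change of Adipoq up to 2.20-fold remains within the interval. Averaged over panobinostat, trastuzumab went with negative differences for all 10 genes, with a median of -0.11 (0.147% of all genes called), and the farthest from 0 was Lep at -0.70 (SE 0.37, adjusted p = 0.873). Counts of signs over the 10 genes, here and for panobinostat alone, are not counts of independent observations, because the genes varied together. The interaction of the drugs called no gene of the table (0%, 279 at an unadjusted p under 0.05, and 0 with DESeq2). The tests across these 8 comparisons share libraries, and 0 of the 10 genes had even an unadjusted p under 0.05 in any of them.

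Since the fat cell genes differed so much, and together, between tumours treated alike, they were also compared at equal Adipoq, with log2 CPM of Adipoq as a covariate in the fit. This fit was chosen after the data were seen, and it compares each gene with Adipoq, which may itself respond to a drug. Averaged over trastuzumab, Cfd and Retn then passed the test as lower with panobinostat, and the other 7 of 9 genes did not pass (6.55% of all genes called). Relative to Adipoq, Cfd was lower by 0.59 on the log2 scale (SE 0.13, edgeR adjusted p = 0.0119) and Retn by 0.73 (SE 0.15, adjusted p = 0.00722). Without the covariate neither was called, at -0.26 (adjusted p = 0.859) for Cfd and -0.21 (adjusted p = 0.928) for Retn. Adipoq itself differed by 0.41 there (SE 0.33, adjusted p = 0.682), so part of the differences at equal Adipoq reflects this uncalled rise. Both calls at equal Adipoq held without each of the 16 libraries in turn, with adjusted p up to 0.0417 for Cfd and 0.0254 for Retn. They also held with Lipe in place of Adipoq as the covariate (0.0209 and 0.0147). Lipe correlated with Adipoq at r = 0.985, so the 2 covariates are nearly the same. Cfd and Retn correlated with each other at r = 0.974 over 16 libraries, so the 2 calls are not independent. Lipe itself differed by 0.01 (SE 0.08) at equal Adipoq, Lpl by -0.03 (SE 0.11), Cidec by -0.14 (SE 0.08), Fabp4 by -0.17 (SE 0.08), Pparg by 0.10 (SE 0.07) and Plin1 by 0.18 (SE 0.09).

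**Figure D4:**
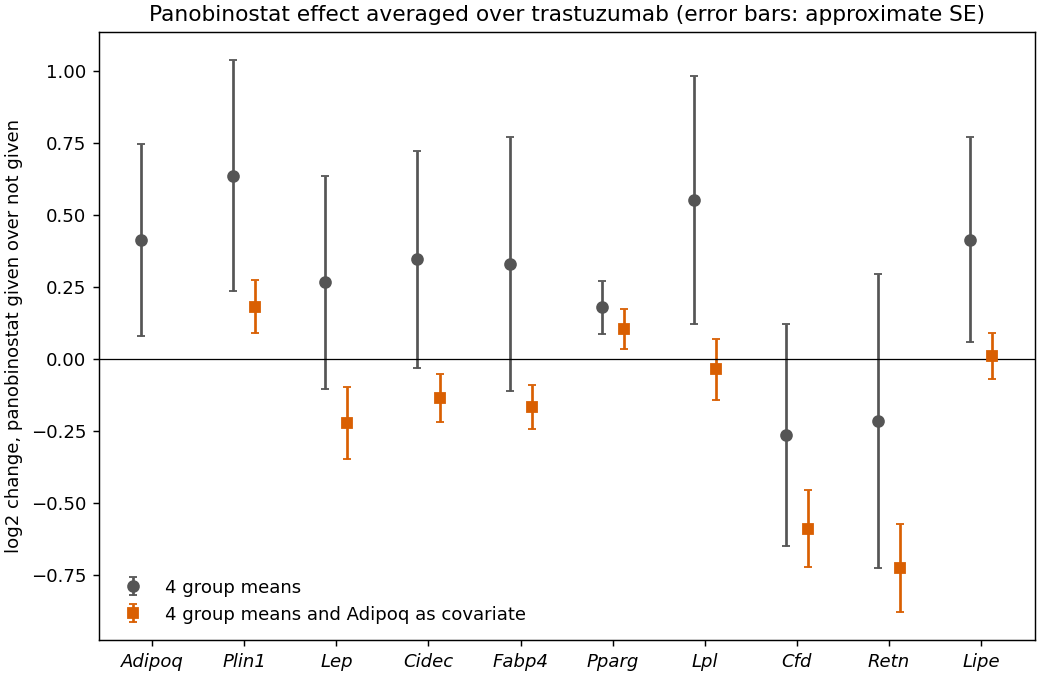
Log2 difference of tumours given panobinostat from those not given it, averaged over trastuzumab, from the fit with 4 group means (circles) and from the fit that adds Adipoq as a covariate (squares, 9 genes), with approximate SE. With the covariate the SE of Cfd is 0.13, and Cfd at -0.59 and Retn at -0.73 are the lowest of the 9 genes.

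Ratios of counts show single tumours, but they are not the measure of the fit. A ratio takes a gene to change in step with Adipoq, while Retn rose by 1.47 on the log2 scale per doubling of Adipoq. Cfd had 2.38, 4.51, 2.92 and 3.54 counts per Adipoq count in vehicle 3, 6, 21 and 29, 3.49, 2.79, 2.76 and 2.74 in trastuzumab 12, 15, 20 and 24, 2.24, 2.52, 2.08 and 1.33 in panobinostat 4, 7, 8 and 13, and 1.85, 2.25, 2.13 and 2.70 in combination 2, 11, 16 and 22. Of the 8 tumours given panobinostat 6 lay below the lowest of the 8 others, vehicle 3, and panobinostat 7 and combination 22 did not. The mean was 3.14 ± 0.678 without and 2.14 ± 0.418 with panobinostat (SD, n = 8 each). Retn had 0.110, 0.440, 0.336 and 0.358 counts per Adipoq count with vehicle, 0.357, 0.262, 0.159 and 0.163 with trastuzumab, 0.158, 0.228, 0.126 and 0.170 with panobinostat, and 0.176, 0.236, 0.138 and 0.271 with the combination. Here the ranges overlapped: the lowest ratio of all was that of vehicle 3. Trastuzumab 15, 20 and 24 lay within the range of the tumours given panobinostat.

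Within single comparisons these calls were less firm. At equal Adipoq, Retn fell by 0.99 with panobinostat alone against vehicle (SE 0.21, adjusted p = 0.0249, 1.58% of all genes called), a call lost without vehicle 6, vehicle 21, panobinostat 4 or panobinostat 13 (adjusted p up to 0.101) and with robust edgeR (0.0520). Cfd, at -0.72 (SE 0.19, adjusted p = 0.0571), did not pass. With both drugs against vehicle, Lep fell by 0.72 (SE 0.17, adjusted p = 0.0184) and Retn fell by 0.75 (SE 0.21, adjusted p = 0.0436), where 5.11% of all genes were called. Lep was lost without vehicle 6 (adjusted p = 0.0730), and Retn without any of 7 of the 8 libraries, all but vehicle 3 (up to 0.171), with Lipe as covariate (0.151) and with robust edgeR (0.0755). Lep had 0.123, 0.146, 0.116 and 0.142 counts per Adipoq count in the vehicle tumours and 0.108, 0.0860, 0.0756 and 0.0603 in combination 2, 11, 16 and 22, so these groups did not overlap. Such a gap was found for 1.54% of all genes in that comparison. With trastuzumab alone Lep stood at 0.0871 to 0.104, again below all vehicle tumours, a gap found for 0.135% of all genes. With panobinostat alone it stood at 0.0945 to 0.158, within whose range the vehicle tumours lay. Neither drug alone was called against vehicle (adjusted p = 0.788 and 0.623). Averaged over panobinostat, trastuzumab went with a Lep difference of -0.49 at equal Adipoq that did not pass (SE 0.12, adjusted p = 0.108, 0.288% of all genes called).

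**Figure D5:**
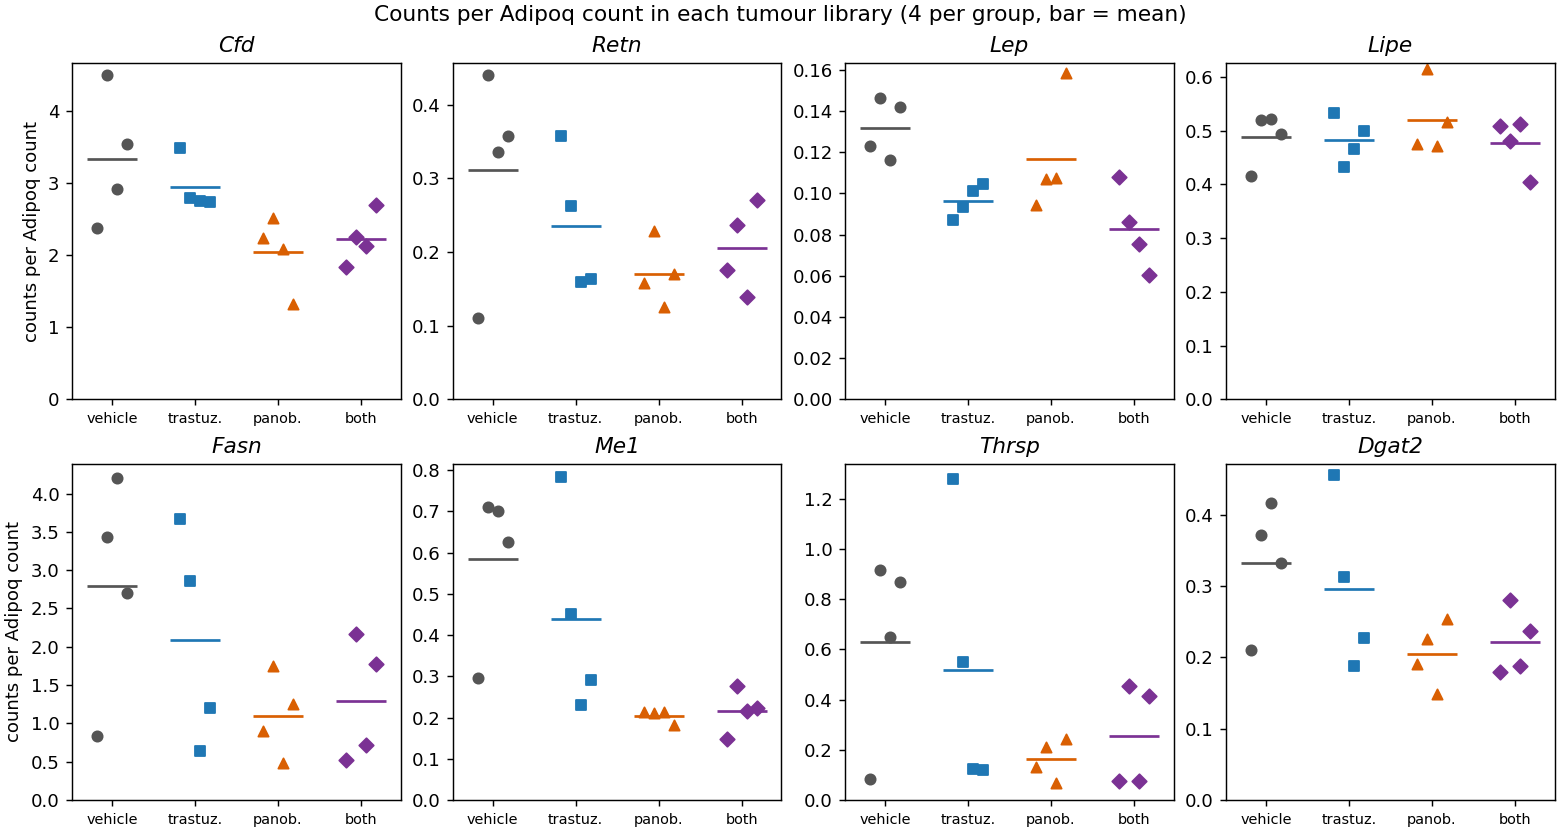
Counts per Adipoq count of 8 genes in each tumour library by group, with axes from 0; points are mice and bars are means of 4. Tumours given panobinostat have a lower mean than the others for Cfd and for the fat synthesis genes Me1 and Dgat2, but the ranges overlap for each. Lipe is level in all 4 groups at means of 0.477 to 0.519.

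The genes around these 10 in fat cell metabolism did not move as 1 block at equal Adipoq. Of 22 genes of fatty acid uptake and synthesis, 14 were lower and 1 higher with panobinostat averaged over trastuzumab, with a median log2 change of -0.48 against -0.01 for all genes, of which 2.97% were called lower. Without trastuzumab 12 the number lower was 8. The covariate narrows the SE of genes that follow Adipoq, as for Cfd, 0.39 without it and 0.13 with it. Shares and medians over all genes, whose median r with Adipoq was 0.03, are therefore not a like measure. Of the 22 genes 20 had r over 0.5 with Adipoq, so their calls are not independent. Me1, malic enzyme, which supplies NADPH for fat synthesis, fell by 1.37 (SE 0.19, adjusted p = 0.000448), Thrsp, a lipogenic regulator, fell by 1.93 (SE 0.31, adjusted p = 0.00132), and Dgat2, of the last step of triglyceride synthesis, fell by 0.71 (SE 0.12, adjusted p = 0.00134). Me1 had 0.231 to 0.784 counts per Adipoq count in the 8 tumours without panobinostat (median 0.539) and 0.148 to 0.277 in the 8 with it (median 0.213), and 7 of the latter lay below all of the former. Fasn, fatty acid synthase, named here after its value was seen, fell by 1.35 (SE 0.29, adjusted p = 0.00863). The 1 gene that was higher, also named after its value was seen, was Pck1, which provides glycerol phosphate in fat (0.52, SE 0.12, adjusted p = 0.0121). These 5 genes kept their call when any 1 of the 16 libraries was left out. Against vehicle alone, 5 of the 22 genes were lower with panobinostat, Me1, Dgat2 and Thrsp among them, and 8 with both drugs, with Scd1, a desaturase, at -0.86 (SE 0.18, adjusted p = 0.00893). Without vehicle 6 these numbers were 1 and 3.

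Without the covariate 1 of these 22 genes was called with panobinostat averaged over trastuzumab, near the 3.02% of all genes. This was Acly, ATP citrate lyase, which makes the acetyl-CoA for fat synthesis, at -0.72 (SE 0.17, adjusted p = 0.0241). It averaged 354 ± 90.1 CPM with vehicle, 307 ± 136 with trastuzumab, 199 ± 6.07 with panobinostat and 203 ± 26.5 with the combination (SD, n = 4 each). Against vehicle alone it was called with neither panobinostat nor the combination by edgeR without the covariate. Its r with Adipoq was 0.19, or 0.55 in deviations from the group means, and with the covariate the difference was -0.77 (SE 0.14, adjusted p = 0.00236).

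The other lists at equal Adipoq are set beside the 2.97% of all genes called lower and the 6.55% called in either direction, with the limit given for the 22 genes. In them, 2 of 14 droplet and lipolysis genes were lower with panobinostat averaged over trastuzumab: Mgll, monoglyceride lipase (-0.53, adjusted p = 0.0412), and Pnpla3 (-0.83, adjusted p = 0.0476). Of 12 transcription factors 1 was lower, Rxra, which encodes a partner of PPARγ (-0.35, adjusted p = 0.00428). Of 16 other fat cell genes 5 were lower, led by Sncg, γ-synuclein (-0.68, adjusted p = 0.000249), Orm1, orosomucoid (-0.67, adjusted p = 0.00116), and Timp4, a metalloproteinase inhibitor (-1.67, adjusted p = 0.00387). Of the same 16 genes 2 were higher, Slc7a10, an amino acid transporter (0.55, adjusted p = 0.00534), and Tusc5, also called Trarg1, of glucose transporter traffic (0.37, adjusted p = 0.0263), both named after their values were seen. Of 7 tested brown and beige markers 3 were lower: Cox8b (-1.58, adjusted p = 0.00120), Cox7a1 (-0.94, adjusted p = 0.0205) and Dio2 (-0.69, adjusted p = 0.0407). Cox7a1 and Timp4 had low levels, at means of 2.32 and 2.69 CPM over 16 libraries. Dio2 did not follow the fat cell genes, with r = -0.30 with Adipoq. Rxra, Sncg, Orm1, Slc7a10 and Cox8b kept their call when any 1 of the 16 libraries was left out. Timp4 was lost without trastuzumab 12 (adjusted p = 0.0614), and of the 16 sets that leave out 1 library Cox7a1 was called in 13, Tusc5 in 11, Dio2 in 7, Mgll in 5 and Pnpla3 in 4. With both drugs against vehicle (5.11% of all genes called) 2 brown and beige markers were lower, Cox8b (-1.52, adjusted p = 0.0104) and Ucp1 (-2.53, adjusted p = 0.0173). Ucp1 had at most 3.24 CPM in any library, and its call was lost without vehicle 29, combination 11 or combination 22 (adjusted p up to 0.0667). None of 10 hormone and adipokine receptors was called by edgeR in this fit.

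Some markers of other cells were called in the same fits, for most cell types 1 gene a list, where 6.55% of all genes were called. At equal Adipoq, 3 of 9 fibroblast and preadipocyte markers were lower with panobinostat averaged over trastuzumab: Dpt, dermatopontin (-0.63, adjusted p = 0.00219), Pi16 (-0.89, adjusted p = 0.0119), and Col1a2 (-0.50, adjusted p = 0.0281). Without the covariate Col1a2 was also called lower (-0.58, adjusted p = 0.0360), as was the skin marker Krt15 (-0.69, adjusted p = 0.0232), and the vessel marker Vwf was called higher (0.53, adjusted p = 0.0315). The summed fibroblast markers ranged from 17037 to 25248 CPM with vehicle and from 13708 to 21172 CPM with trastuzumab. They ranged from 12141 to 19430 CPM with panobinostat and from 12443 to 15098 CPM with the combination. At equal Adipoq 1 of 10 macrophage markers, Emr1, was lower (-0.29, adjusted p = 0.0483), 1 of 10 endothelial markers, Vwf, higher (0.52, adjusted p = 0.0194), 1 of 7 mammary markers, Krt17, lower (-0.72, adjusted p = 0.0433), and 1 of 3 tested skin markers, Krt15, lower (-0.62, adjusted p = 0.0161). Dpt, Pi16 and Krt15 kept their call when any 1 of the 16 libraries was left out, Vwf was lost without panobinostat 4 (adjusted p = 0.0549), and Col1a2 was called in 12, Emr1 in 4 and Krt17 in 4 of the 16 sets. With both drugs against vehicle 1 skin marker, Krt10, was called lower (-3.78, adjusted p = 0.0490), and without vehicle 21, where it stood at 166 CPM, its difference was -0.30 (adjusted p = 0.615). None of 3 tested muscle markers was called by edgeR. The part of these cells in the changes of Cfd, Retn and the fat synthesis genes was not tested.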

How the data were processed

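Whole-tumour RNA of 16 mice was sequenced after a TruSeq library preparation, per the labels' protocols. The deposited file is a table of raw counts of reads for each mouse gene. CASAVA 1.8.2, TopHat2, HTSeq and build mm10 are named in the submitters' processing notes. Program settings, the gene annotation used and the handling of human reads: not given in the sources used here. Reads of human tumour cells may therefore be part of the count of a conserved gene. Symbols with a dot in place of a value in the panobinostat-treated libraries (1327 of 24681, none of the 10 genes) were left out.

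Counts were filtered with filterByExpr and scaled with TMM, and all 16 libraries entered 1 quasi-likelihood fit with a mean per group (edgeR 4.0.16 in R 4.3.3, 12 residual degrees of freedom). Calls were made at an adjusted p (Benjamini-Hochberg, over all genes tested) under 0.05. An SE is the absolute log2 change over the root of the F statistic, and intervals are approximate and built from it. Correlations use log2 CPM with a prior count of 2. The fit at equal Adipoq was added after the data were seen and tests the other 15609 genes. Alternatives were total-count scaling, no filter, a fit of the compared groups alone, robust edgeR, DESeq2 1.42.0, and leaving out each library. The fit with a mean per group was also tested on simulated data in which genes varied independently. The fit at equal Adipoq was not.

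The 10 genes, the other lists and the tests were chosen with earlier results of these data known. All 10 genes are named. From every other list, all called genes are named where there were 3 or fewer and otherwise the 3 of smallest adjusted p in a comparison, with the 2 most abundant of each cell type list and the 10 genes most like Adipoq. Lengths are those of principal transcripts in GENCODE M21, on mm10. Replicate libraries differed by more than counting noise in every pair, and each came from its own mouse.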

Additional observations from a re-analysis of the deposited data

Results flagged for a closer look

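Pparg in trastuzumab 24 stood at 41.6 CPM, below the 51.0 to 51.9 CPM of the other 3 trastuzumab libraries. The gap was 0.916 of the group's range, above Dixon's critical value at 95%. Among the 40 groups of 4 libraries checked (10 genes in 4 groups) this was the 1 group in which a library stood apart, and chance gives about 2. Trastuzumab 24 was also the lowest of the 16 libraries in the summed level of the 10 genes, at 1699.6 CPM.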

How the results depend on the processing

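Without a covariate, 0 of 1250 values of the 10 genes under all alternatives were called, and the smallest adjusted p was 0.186. The signs of uncalled differences were not stable: with those of Cfd, Retn and Lep at equal Adipoq counted in, 138 of 976 values changed sign when 1 library was left out. Leaving out each library gave -0.042 to 0.67 for Adipoq with panobinostat against vehicle (lowest without panobinostat 13), -0.55 to 0.32 for Cidec with trastuzumab, and, averaged over trastuzumab, -0.44 to 0.084 for Cfd and -0.41 to 0.28 for Retn with panobinostat (both highest without trastuzumab 12). The cause was not tested.

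Counts over all genes moved more. With panobinostat against vehicle 30 genes became 46 with total-count scaling, 154 with DESeq2, 58 with only these groups fitted, 247 with the Adipoq covariate, and 3 to 12 without each library. With trastuzumab alone 0 became 12 with DESeq2 and 1 with only these groups. With the combination against vehicle 343 became 537 with DESeq2, 127 with only these groups, 797 with the covariate and 201 to 379 without each library. Against panobinostat alone 0 became 15 with DESeq2. Against trastuzumab alone 98 became 228, 5, 158 (in the same order of settings) and 3 to 179. Averaged over trastuzumab, panobinostat went from 471 to 1023 with the covariate. Averaged over panobinostat, trastuzumab went from 23 to 64 with DESeq2, 45 with the covariate and 2 to 33 without each library.

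At equal Adipoq, leaving out each library gave 34 to 287 genes with panobinostat against vehicle and 385 to 802 with the combination. Of the 22 fatty acid genes, 1 to 6 and 3 to 11 were then lower, and 8 to 15 averaged over trastuzumab. Robust edgeR gave 3 and 5 of them in the first pair. No paired analysis was possible because no mouse number occurs in more than 1 group.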
